A study of Arabidopsis thaliana with 12 samples.

Results

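The 26S proteasome subunit genes of Arabidopsis thaliana were followed as 49 listed loci, and all 49 were present among the 19714 genes counted in both genotypes. The list is of loci, with no limit on a measured value, and was made with earlier results of these data known. Of them, 12 encode subunits of the alpha ring and 11 of the beta ring of the 20S core, 10 encode RPT ATPases and 16 encode RPN non-ATPase subunits of the 19S cap. The comparison asked whether these genes stand higher where autophagy is impaired and how they respond to a water stress medium. Whole seedlings of the atg5 insertion line SALK_020601C and of the Columbia-0 wild type were germinated for 5 days, before RNA sequencing, in liquid control medium with 0.5X Murashige salts and 0.5% sucrose, called NM. The stress medium, called WSM, was the same medium with 2.5% glycerol and 0.5% alginic acid added. Count columns were used for 3 atg5 WSM libraries (numbered 1, 2 and 3), 2 atg5 NM libraries (1 and 3), 2 wild-type WSM libraries (3 and 4) and 3 wild-type NM libraries (2, 3 and 4). The mutant is 1 insertion line, and the labels do not say whether libraries of a group came from separate cultures, so p-values measure the spread between these libraries, which may be technical.

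The proteasome degrades proteins tagged with ubiquitin. In the core, beta-ring subunits carry the proteolytic sites and alpha-ring subunits gate the entrance, while the RPT ATPases of the cap unfold substrates and the RPN subunits bind, deubiquitinate and position them. Autophagy, which needs ATG5 for its membrane conjugation step, carries cytoplasm to the vacuole. In Arabidopsis it also removes proteasomes, with RPN10 acting as a receptor for ubiquitinated ones. NAC053 and NAC078 are Arabidopsis transcription factors that activate proteasome genes when proteasome activity is blocked.

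Upstream sequence is shown for 3 genes, picked after their values were seen: RPN1B, which has the most matches to the motif searched, AT1G04810, a gene for the scaffold subunit Rpn2 that passed a test, and PBA1, a catalytic gene of the beta ring. Each is the 250 bases before the annotated gene start in RefSeq's TAIR10.1, written 5′ to 3′ on the gene's strand, with TGGGC and its reverse complement GCCCA in capitals. The windows are chr4:14072583-14072832 (minus strand) for RPN1B, chr1:1349830-1350079 (plus strand) for AT1G04810 and chr4:15188494-15188743 (plus strand) for PBA1, and none of them overlaps another annotated gene.
RPN1B: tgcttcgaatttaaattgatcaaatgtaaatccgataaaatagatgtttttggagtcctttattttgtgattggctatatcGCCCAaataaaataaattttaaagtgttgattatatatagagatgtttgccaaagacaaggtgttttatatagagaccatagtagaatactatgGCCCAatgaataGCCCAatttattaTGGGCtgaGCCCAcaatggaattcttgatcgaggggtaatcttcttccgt
AT1G04810: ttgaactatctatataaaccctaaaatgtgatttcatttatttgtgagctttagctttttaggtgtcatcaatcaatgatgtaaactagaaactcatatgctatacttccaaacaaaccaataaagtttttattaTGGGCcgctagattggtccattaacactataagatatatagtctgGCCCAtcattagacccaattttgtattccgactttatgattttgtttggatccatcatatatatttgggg
PBA1: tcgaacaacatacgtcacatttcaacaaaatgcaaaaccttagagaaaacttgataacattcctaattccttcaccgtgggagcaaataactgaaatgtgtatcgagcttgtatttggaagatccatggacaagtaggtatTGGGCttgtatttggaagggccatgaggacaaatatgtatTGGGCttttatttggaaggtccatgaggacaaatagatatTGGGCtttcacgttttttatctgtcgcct
RPN1B holds 5 matches, PBA1 3 and AT1G04810 2. Of the 49 subunit genes, 24 had at least 1 match in this window, against 4901 of the 18683 protein-coding genes counted in both genotypes (26.2%). The share was 5 of 12 alpha-ring, 7 of 11 beta-ring, 3 of 10 RPT and 9 of 16 RPN genes. A match describes the letters of the window and not a bound site.

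The libraries held 8928632 to 24022759 gene counts, of which 19.0 to 65.6% fell on 27 genes in ribosomal RNA regions, and atg5 WSM library 1 was the shallowest, with 3073944 counts outside them. Every subunit gene was detected in every library, with 41 to 4454 counts. ATG5 itself averaged 29.7 ± 2.95 CPM (counts scaled to a common normalised library size) in atg5 WSM, 23.8 ± 4.67 in atg5 NM, 22.0 ± 2.50 in wild-type WSM and 29.1 ± 1.67 in wild-type NM (SD, n = 3, 2, 2 and 3); a count over the whole gene does not check an insertion. The libraries labelled atg5 were not alike at PREP1 (AT3G19170), a peptidase gene. In atg5 WSM libraries 1, 2 and 3 it had 349, 4 and 2412 counts, and in atg5 NM it had 2 and 0, against 753 to 2668 in wild type. Leaving out WSM libraries 1 and 3, the PREP1-positive ones, keeps 1 atg5 WSM library. Results of that fit are given where the subunit genes differ or a named value changes sign. Calls in the wider pathway list also changed there and are not given. A summed seed marker list stood at 12.0 to 138 CPM in atg5 libraries, against 1463 to 2151 CPM in wild-type libraries. In this list 4 of the 5 genes were lower in every atg5 library, and the seed albumin SESA1 was near 0 throughout. A root marker list summed to 43.9 to 83.7 CPM in atg5 WSM against 93.3 to 133 CPM in atg5 NM. It summed to 44.5 to 59.99 CPM in wild-type WSM against 133 to 147 CPM in wild-type NM, all 5 genes being lower in wild-type WSM. The green tissue list summed to 9777 to 20847 CPM in atg5 WSM, 8263 to 9526 CPM in atg5 NM, 9940 to 17412 CPM in wild-type WSM and 14129 to 15495 CPM in wild-type NM. The part of these lists in the results below was not tested, and in whole seedlings fewer cells of a type cannot be told apart from less RNA per cell.

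The subunit genes were well expressed. Their mean level per length over all 10 libraries ran from 7.4 to 78.9 CPM per kb of exon, which placed them between the 58.7th and the 95.7th percentile of protein-coding genes. PAC1, an alpha-ring gene, was highest, followed by the beta-ring gene PBF1 at 75.9, RPT1A at 66.1 and PBA1 at 65.9 CPM per kb. RPN1B, for a scaffold of the cap, was lowest, and AT3G11270, AT3G26340 and AT1G04810 followed at 8.5, 8.6 and 8.7 CPM per kb. Medians by complex part were 32.1 CPM per kb for the alpha ring, 36.9 for the beta ring, 31.4 for the RPT ATPases and 23.7 for the RPN subunits. The lowest genes were each the lesser of a pair: 18 of the 31 subunit positions were listed with 2 genes and 13 with 1.

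Within pairs, coding sequences were 80.7 to 94.4% identical (median 87.5%), and RPT6A with AT5G20000 was the only pair to share any stretch of 75 bases, the read length (4.05% of such stretches), so those 2 genes' counts are uncertain. PAF2, with 65.1% of its exon bases antisense to AT1G47260, is uncertain where counting ignored strand. The gene with the higher level per length exceeded its partner by 1.03-fold for PAD1 over PAD2 and by up to 5.45-fold for RPT5A over RPT5B. PBE1, for the chymotrypsin-like catalytic subunit, exceeded AT3G26340 by 5.30-fold, and RPN5A exceeded RPN5B by 4.46-fold. The lesser partner's share of a pair's level varied over libraries from 13.7 to 31.0% for AT3G11270 with RPN8A, from 9.14 to 25.1% for RPN5B with RPN5A, and from 25.6 to 29.7% for PBB2 with PBB1, the pair for the trypsin-like catalytic subunit. The lowest shares of AT3G11270 and RPN5B were both in atg5 WSM library 1, the shallowest. Without it, a setting added after the data were seen, the ranges were 17.5 to 31.0% for AT3G11270 and 15.9 to 25.1% for RPN5B.

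**Figure D1:**
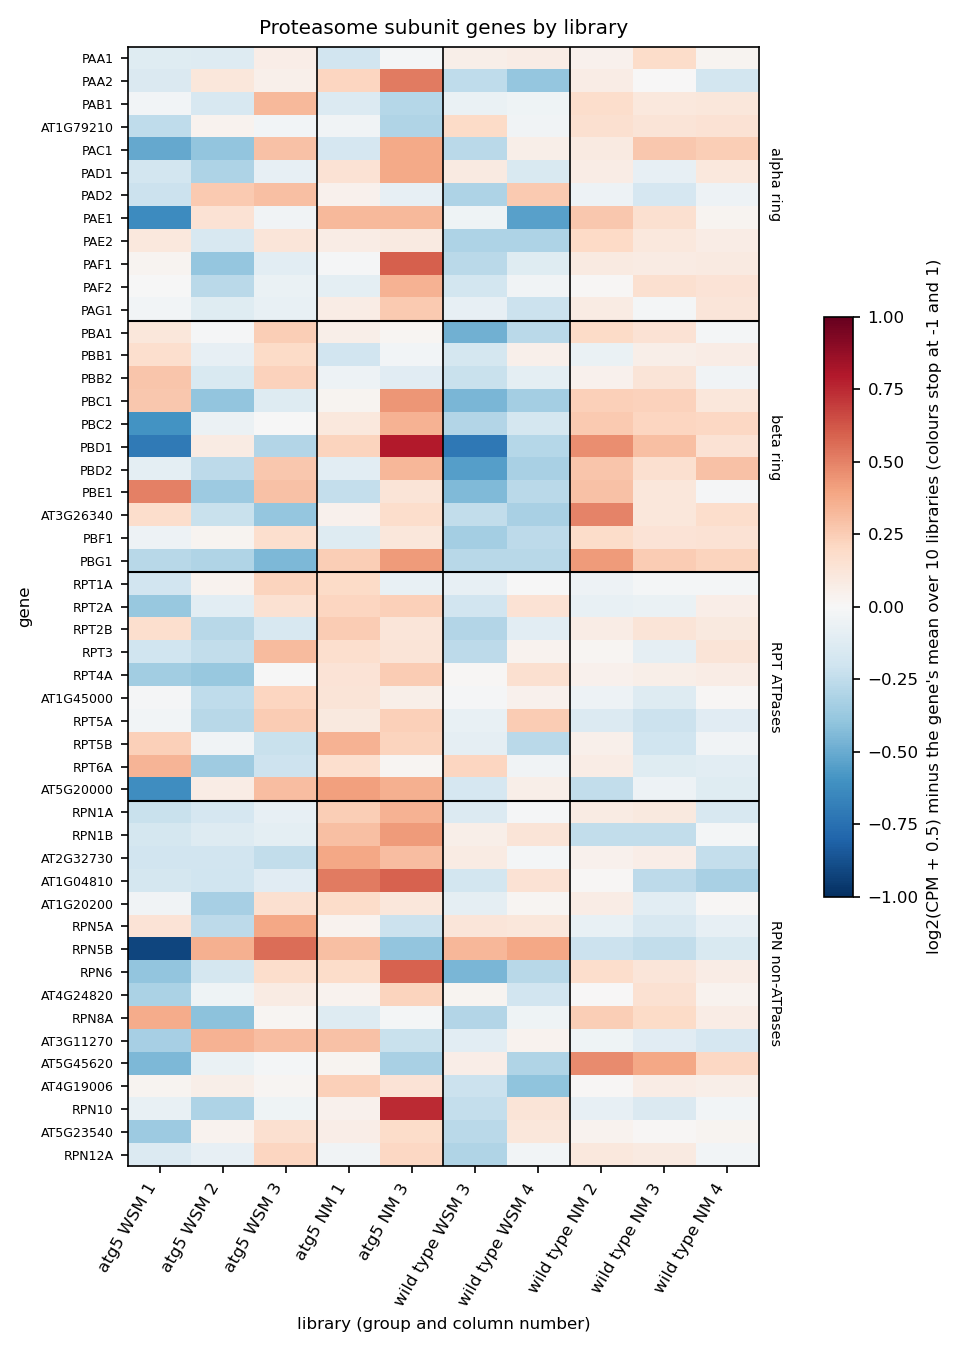
Level of each of the 49 subunit genes (rows, grouped by complex part) in each of the 10 libraries (columns), as log2(CPM + 0.5) minus the gene's own mean over libraries; colours stop at -1 and 1. Rows of the beta ring are low in both wild-type WSM libraries. Most rows are above their mean in both atg5 NM libraries (36 and 37 of 49 genes) and in the wild-type NM libraries (30 to 37).

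As a whole, the subunit genes took 0.420 ± 0.0185% of the counts outside ribosomal RNA regions in atg5 WSM, 0.514 ± 0.0197% in atg5 NM, 0.432 ± 0.00512% in wild-type WSM and 0.449 ± 0.00354% in wild-type NM (SD, n = 3, 2, 2 and 3). The share was highest in both atg5 NM libraries. In the colour plot of levels by library, 36 and 37 of 49 genes were above their own mean in atg5 NM and 30 to 37 in wild-type NM. In atg5 WSM 12 to 28 genes were, and in wild-type WSM 11 and 18. This count, unlike the share, did not set atg5 NM apart from wild-type NM.

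The first comparison asked how atg5 seedlings in WSM differed from atg5 seedlings in NM. Of the 49 genes, 2 fell and none rose at an adjusted p under 0.05 (edgeR's quasi-likelihood test, Benjamini-Hochberg adjustment over all 19714 genes). Across all genes, 2.64% were called lower and 5.22% higher. At an unadjusted p under 0.05, 10 subunit genes were lower and 0 higher, where 11.6% and 13.6% of all genes were. The WSM values lay wholly below the NM values for 17 subunit genes and wholly above for 0, against 16.6% and 16.2% of all genes. Of the 49, 36 had a negative log2 fold change; the median was -0.20, against -0.024 over all genes, and the range ran from -0.80 to 0.28. Without the PREP1-positive libraries the member median was -0.33.

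AT1G04810, a gene for Rpn2, the scaffold of the cap base that holds ubiquitin receptors, had 25.6, 25.3 and 26.8 CPM in atg5 WSM, 41.9 and 44.0 CPM in atg5 NM, 25.5 and 32.2 CPM in wild-type WSM and 29.3, 24.2 and 23.1 CPM in wild-type NM. Both atg5 NM libraries stood above the other 8, which overlapped. The fall in atg5 was -0.73 ± 0.19 on the log2 scale (SE), with an adjusted p of 0.043. With length correction it was -0.47 with an adjusted p of 0.232, and leaving out single libraries gave adjusted p from 0.0416 to 0.160, under 0.05 only without atg5 WSM library 1. Its partner AT2G32730 had 50.4, 50.5 and 48.5 CPM in atg5 WSM, 75.4 and 71.5 CPM in atg5 NM, 61.0 and 56.7 CPM in wild-type WSM and 59.2, 60.2 and 48.9 CPM in wild-type NM. It was again highest in atg5 NM, with a log2 fold change of -0.56 ± 0.19 and an adjusted p of 0.089 (0.030 with DESeq2, which called 4.96% of all genes lower).

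PBG1, a non-catalytic beta-ring gene, had 25.6, 25.2 and 22.6 CPM in atg5 WSM, 36.9 and 42.0 CPM in atg5 NM, 25.6 and 25.5 CPM in wild-type WSM and 41.8, 37.1 and 36.4 CPM in wild-type NM. All 5 WSM libraries lay below all 5 NM libraries, in both genotypes. The fall in atg5 was -0.69 ± 0.18, with an adjusted p of 0.041. The call was lost without any 1 wild-type library, atg5 WSM library 3 or atg5 NM library 3 (adjusted p 0.030 to 0.176 over all libraries left out singly), and kept with length correction at 0.022. In a fit of the atg5 libraries alone, neither gene was called (adjusted p 0.290 for AT1G04810 and 0.327 for PBG1), where 0.0406% of all genes were called lower. Leaving out the PREP1-positive libraries also ended both calls (0.118 and 0.138).

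Other members with the lowest or highest values in atg5 came from the beta and alpha rings. PBD1, a non-catalytic beta-ring gene, had 20.5, 35.9 and 27.6 CPM in atg5 WSM, 39.5 and 58.9 CPM in atg5 NM, 20.4 and 27.7 CPM in wild-type WSM and 46.9, 41.7 and 37.5 CPM in wild-type NM. Its WSM libraries were below its NM libraries in each genotype, and its log2 fold change in atg5 was -0.80 ± 0.27 with an adjusted p of 0.094. For PBD1, 11.1% of exon bases overlap an antisense gene, so its level is uncertain where counting ignored strand. PAB1, of the alpha ring, had 30.9, 28.1 and 39.7 CPM in atg5 WSM, 28.7 and 25.7 CPM in atg5 NM, 30.0 and 30.7 CPM in wild-type WSM and 35.6, 34.0 and 34.2 CPM in wild-type NM. The atg5 groups overlapped, and the value of 0.28 ± 0.20 had an adjusted p of 0.427. PBB2 stood at 36.1, 26.6 and 34.8 CPM in atg5 WSM, 28.7 and 27.3 CPM in atg5 NM, 25.3 and 27.6 CPM in wild-type WSM and 30.5, 32.5 and 29.0 CPM in wild-type NM, and its value of 0.21 ± 0.20 in atg5 had an adjusted p of 0.550. By complex part, the median log2 fold change in atg5 was -0.25 for the alpha ring, -0.14 for the beta ring, -0.18 for the RPN genes and -0.22 for the RPT genes, all 10 of which were negative.

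RPN6, a lid subunit, had 63.6, 74.1 and 94.7 CPM in atg5 WSM, 95.2 and 126 CPM in atg5 NM, 61.0 and 69.3 CPM in wild-type WSM and 94.6, 91.3 and 88.1 CPM in wild-type NM. Its WSM libraries lay below its NM libraries in each genotype, by a log2 of -0.51 ± 0.22 in atg5 (adjusted p 0.180) and -0.49 ± 0.23 in wild type (adjusted p 0.233). RPN10, the ubiquitin receptor named above, had 56.0, 47.6 and 57.1 CPM in atg5 WSM, 60.8 and 99.5 CPM in atg5 NM, 49.9 and 64.6 CPM in wild-type WSM and 55.9, 53.4 and 57.7 CPM in wild-type NM. Its atg5 NM libraries were above its atg5 WSM libraries, with 1 of them far above all others, and the log2 of -0.58 ± 0.24 had an adjusted p of 0.155.

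The same comparison in wild type gave no member called in either direction, where 2.62% of all genes were called lower and 3.27% higher. At an unadjusted p under 0.05, 8 subunit genes were lower and 0 higher, where 11.6% and 11% of all genes were. Of these, 7 belonged to the beta ring. WSM values lay wholly below NM values for 23 subunit genes and wholly above for 4, against 28% and 28.8% of all genes. The member median was -0.14, against 0.018 over all genes, with a range of -0.81 to 0.58. All 11 beta-ring genes had negative values, with a median of -0.49, and 10 of them did not overlap between media. The alpha ring had 11 of 12 negative and a median of -0.22, while the RPN and RPT medians were -0.056 and 0.019.

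PBA1, for the caspase-like catalytic subunit, had 82.6, 75.8 and 90.8 CPM in atg5 WSM, 79.5 and 77.2 CPM in atg5 NM, 54.6 and 63.2 CPM in wild-type WSM and 87.1, 84.6 and 75.3 CPM in wild-type NM. Only the wild-type WSM libraries stood apart, below the other 8, and the log2 in wild type was -0.48 ± 0.19 with an adjusted p of 0.169. PBE1 had 96.4, 52.6 and 83.0 CPM in atg5 WSM, 57.2 and 74.3 CPM in atg5 NM, 49.7 and 55.9 CPM in wild-type WSM and 82.9, 73.2 and 67.1 CPM in wild-type NM. It was lower in WSM in both wild-type libraries, at -0.49 ± 0.27 (adjusted p 0.297), while the atg5 WSM values spanned more than the atg5 NM range. PBB1, the third catalytic gene, had 84.9, 71.6 and 86.6 CPM in atg5 WSM, 66.1 and 74.4 CPM in atg5 NM, 66.8 and 78.2 CPM in wild-type WSM and 72.4, 78.8 and 79.7 CPM in wild-type NM. Its groups overlapped in both genotypes, with log2 values of 0.21 ± 0.20 in atg5 and -0.087 ± 0.19 in wild type.

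The lowest wild-type values were in PBD1, PBD2 and PBC1. In wild type PBD1 had a log2 of -0.81 ± 0.28 and an adjusted p of 0.118. PBD2, its pair partner, with 18.9% of exon bases antisense to another gene, had 46.1, 41.2 and 59.7 CPM in atg5 WSM, 45.9 and 62.3 CPM in atg5 NM, 33.5 and 39.3 CPM in wild-type WSM and 59.95, 55.3 and 60.5 CPM in wild-type NM. Its log2 was -0.69 ± 0.23 in wild type, with an adjusted p of 0.107. PBC1 had 45.7, 28.7 and 34.5 CPM in atg5 WSM, 38.5 and 51.4 CPM in atg5 NM, 27.4 and 29.8 CPM in wild-type WSM and 44.7, 44.5 and 40.8 CPM in wild-type NM. Its log2 in wild type was -0.60 ± 0.24, with an adjusted p of 0.161. In both of these genes the media separated in wild type and overlapped in atg5.

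The highest wild-type values were in cap genes. RPN5B, the lesser gene of its lid subunit, had 8.08, 20.3 and 23.5 CPM in atg5 WSM, 19.5 and 11.8 CPM in atg5 NM, 19.9 and 20.8 CPM in wild-type WSM and 13.5, 13.2 and 14.1 CPM in wild-type NM. The wild-type groups were close within and apart between media (0.58 ± 0.35, adjusted p 0.356), while the atg5 libraries of each medium differed widely. RPN1B had 21.1, 21.8 and 22.3 CPM in atg5 WSM, 29.5 and 32.3 CPM in atg5 NM, 24.9 and 26.2 CPM in wild-type WSM and 20.1, 20.1 and 23.5 CPM in wild-type NM. Its WSM libraries were lower than NM in atg5 (-0.51 ± 0.18, adjusted p 0.106) and higher in wild type (0.27 ± 0.18, adjusted p 0.402), where length correction turned the sign (-0.054). RPT5A had 94.6, 79.4 and 115 CPM in atg5 WSM, 104 and 114 CPM in atg5 NM, 91.8 and 115 CPM in wild-type WSM and 87.7, 83.0 and 89.2 CPM in wild-type NM, with a log2 of 0.26 ± 0.22 and an adjusted p of 0.511 in wild type.

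The wild-type calls differed with the libraries fitted. The atg5 replicates agreed less closely (r of log2 values 0.857 to 0.944) than the wild-type replicates (0.969 to 0.984), and all share 1 spread estimate in the joint fit. The lowest values, 0.857 and 0.890, both involved atg5 WSM library 1, the shallowest. The atg5 pairs without it stood at 0.944 in WSM and 0.927 in NM. Whether the replicate spread changed the wild-type calls was not tested. In a fit of the wild-type libraries alone, 12 members were called lower and 1 higher, where 15.3% and 14.1% of all genes were (15.2% and 14% over all genes of the wild-type table). Of the 12, 9 were beta-ring genes (PBA1, PBC1, PBC2, PBD1, PBD2, PBE1, AT3G26340, PBF1 and PBG1). The others were PAE2, RPN6 and AT5G45620, and the gene called higher was RPN5B. With DESeq2 on all libraries, PBG1 alone was called lower, where 5.95% of all genes were. At an adjusted p under 0.05, a threshold applied here, the authors' deposited table for wild type holds the same 13 genes, with 14.9% of its 20002 genes lower and 12.3% higher. The class column of the authors' deposited table marks 562 of the 20002 genes as changed and 0 of the 49. In that wild-type fit, 6 members were called lower without WSM library 3 (14.7% of all genes), with PAE1 new to the list, and 10 without WSM library 4 (13.7%), with PAC1 new. Without NM library 2, 3 or 4, the counts were 4, 4 and 5 (11.1%, 11.1% and 12.4% of all genes); these settings were added after the data were seen. In the joint fit without the PREP1-positive libraries, 3 beta-ring genes (PBD1, PBD2 and PBG1) were called lower, where 7.88% of all genes were. At the same threshold the authors' deposited table for atg5 holds 0 of the 49, where 1.03% of its 20492 genes were lower and 4.03% higher.

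**Figure D2:**
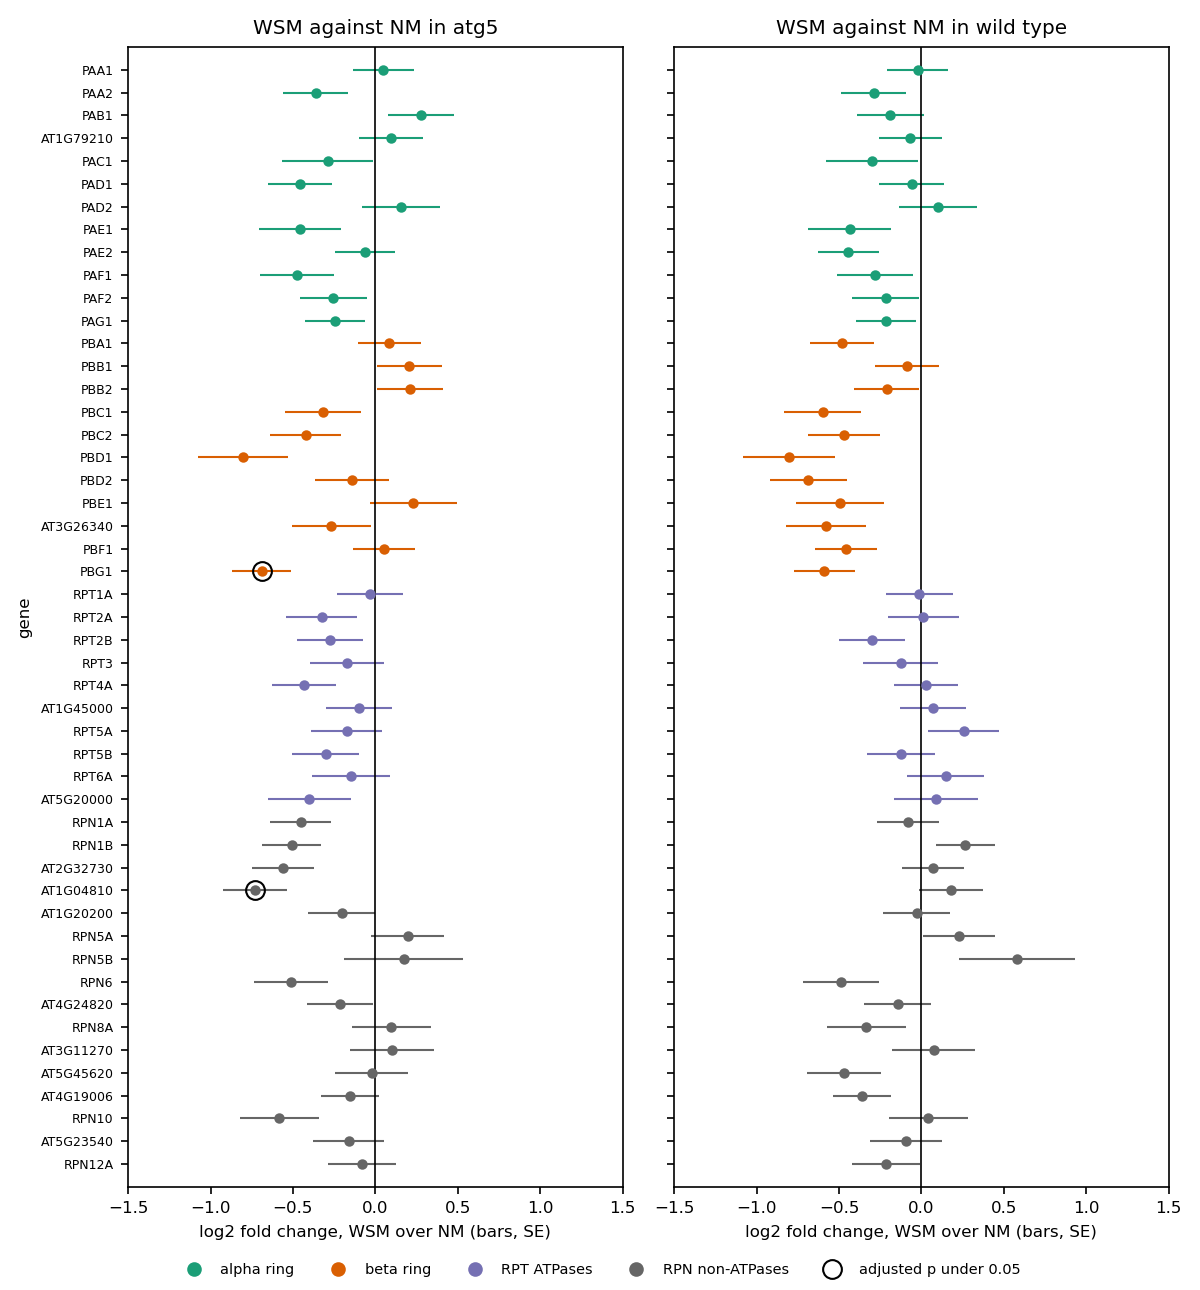
Log2 fold change of WSM over NM for each of the 49 subunit genes (points, with SE bars) in atg5 (left) and wild type (right), coloured by complex part; black rings mark adjusted p under 0.05. The 2 ringed genes are AT1G04810 and PBG1 in atg5, and all 11 beta-ring points lie below 0 in wild type.

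Fold changes also moved with gene length, and core genes are short. Across all genes, Spearman's rho between exonic length and the log2 fold change of WSM over NM was -0.25 in atg5 and 0.38 in wild type; over the 49 members it was -0.16 and 0.52. Genes within a library share its RNA and depth, so these are descriptions without a test. The 23 members under 1500 bases, a limit set after seeing the data, had a median of -0.16 in atg5 and -0.28 in wild type, against 0.17 and -0.23 for all genes under that length. In wild type, WSM values lay wholly below NM values for 16 of these 23, against 3178 of all 7453 genes under that length. The 26 longer members had medians of -0.21 in atg5 and -0.0013 in wild type, against -0.12 and 0.15 for all longer genes. After a correction for length, the beta-ring median was -0.24 in atg5 and -0.28 in wild type, the alpha-ring median was -0.37 and -0.014, the RPT median was -0.22 and 0.045, and the RPN median was -0.20 and -0.073. In the fit of wild-type libraries alone, length correction (also added after the data were seen) gave 2 members called lower, PBD2 and RPN6, and RPN5B called higher, where 11.6% and 10.8% of all genes were.

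**Figure D3:**
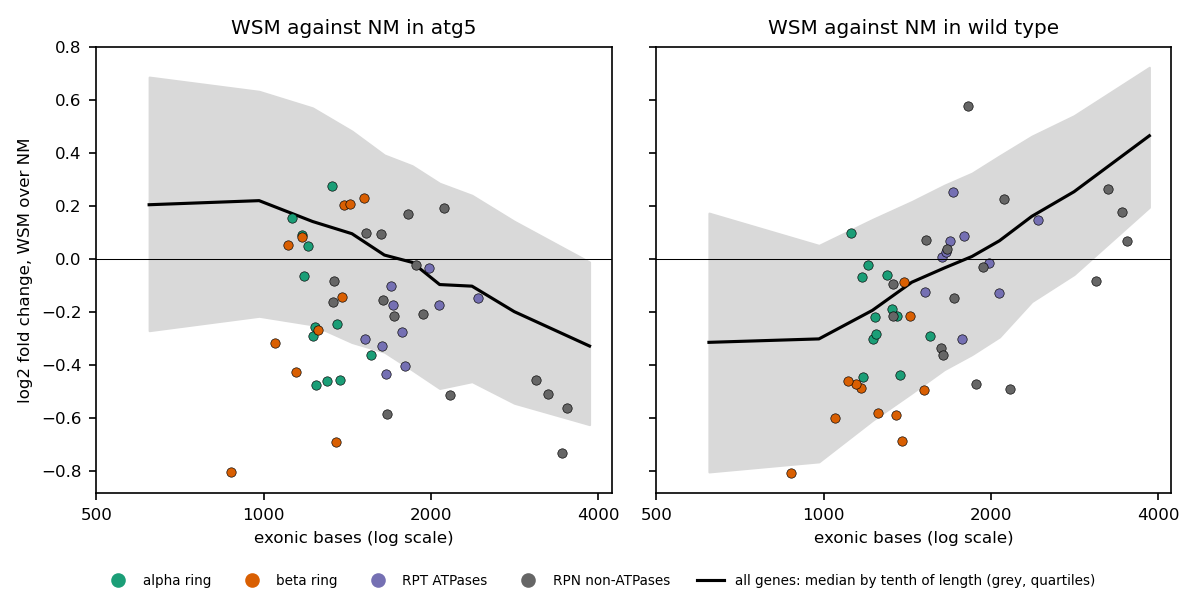
Log2 fold change of WSM over NM against exonic length (log axis) for the 49 subunit genes (points, coloured by complex part), with the median of all genes by length class, each with about the same number of genes, as a line and the quartiles in grey, in atg5 (left) and wild type (right). The line falls with length in atg5 and climbs with it in wild type, and most subunit genes in atg5 lie below it.

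The comparison the gene set was chosen for, atg5 against wild type in the same medium, gave 0 members called in NM, where 0.0913% of all genes were called higher and 0.0558% lower. At an unadjusted p under 0.05, 3 members were higher and 1 lower, where 8.12% and 5.82% of all genes were. DESeq2 called AT1G04810 alone higher (1.48% of all genes). Of the 49, 35 had positive values in NM, with a median of 0.099 against 0.027 over all genes and a range of -0.50 to 0.75. The atg5 NM values lay wholly above wild-type NM for 19 members and wholly below for 7, against 18.9% and 19% of all genes. For 46 of the 49 the 95% interval of the log2 fold change lay between -1 and 1, so that 2-fold changes lay outside it. The cap genes held most of the positive values: 10 of 10 RPT genes (median 0.15) and 14 of 16 RPN genes (0.17), against 7 of 12 alpha-ring (0.053) and 4 of 11 beta-ring genes (-0.12). After length correction the medians were 0.21, 0.20, 0.25 and 0.089, in the same order, and 0.20 over all members.

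In NM the genes with the highest values in atg5 were AT1G04810 at 0.75 ± 0.19 (adjusted p 0.142), RPN1B at 0.54 ± 0.18 (0.214) and AT5G20000 at 0.53 ± 0.25 (0.376). Across all genes this comparison climbed with exonic length (Spearman's rho 0.44, and 0.50 over the 49 members, without a test). The median was 0.27 for genes of 2572 to 3194 exonic bases and 0.49 for longer ones. AT1G04810 and RPN1B stood higher in both atg5 NM libraries than in any of the other 8 libraries. AT5G20000, an RPT gene, had 15.8, 25.8 and 30.4 CPM in atg5 WSM, 32.6 and 31.5 CPM in atg5 NM, 21.8 and 25.5 CPM in wild-type WSM and 20.5, 23.6 and 22.5 CPM in wild-type NM, so atg5 NM was again above wild-type NM. RPN10 had a value of 0.53 ± 0.24 and an adjusted p of 0.354, and 1 of its atg5 NM libraries carried most of the difference. The lowest was AT5G45620, an RPN gene, with 23.1, 30.3 and 31.2 CPM in atg5 WSM, 32.3 and 25.2 CPM in atg5 NM, 33.2 and 25.5 CPM in wild-type WSM and 44.0, 41.4 and 36.6 CPM in wild-type NM. Wild-type NM stood above the other 3 groups for this gene, with a log2 of -0.50 ± 0.22 for atg5 over wild type in NM and an adjusted p of 0.349. AT1G79210, an alpha-ring gene, had 16.6, 20.3 and 19.4 CPM in atg5 WSM, 19.3 and 16.0 CPM in atg5 NM, 22.6 and 19.3 CPM in wild-type WSM and 22.2, 21.7 and 21.9 CPM in wild-type NM. Its value of -0.31 ± 0.19 and that of its partner PAB1, -0.35 ± 0.20, had adjusted p of 0.500 and 0.474.

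In WSM, 0 members were called between atg5 and wild type, where 0.00507% of all genes were called higher and 0.0304% lower. At an unadjusted p under 0.05, 1 member was higher and 0 lower, where 8.17% and 3.83% of all genes were. Of the 49, 28 had positive values, with a median of 0.048 against 0.026 over all genes and a range of -0.32 to 0.55. Values did not overlap for 6 higher and 3 lower members, against 13.6% and 13.8% of all genes. The 95% interval lay between -1 and 1 for 48 of 49. The beta ring had 10 of 11 positive values and a median of 0.29, which was 0.095 after length correction. PBE1 (0.55 ± 0.27, adjusted p 0.443), PBA1 (0.50 ± 0.19, 0.359) and PBD2 (0.43 ± 0.23, 0.481) had the highest values, and without the PREP1-positive libraries PBE1 was at -0.0061. The lowest were RPT4A at -0.32 ± 0.19 (0.517), AT2G32730 at -0.24 ± 0.19 (0.621) and RPN1B at -0.23 ± 0.18 (0.616). RPT4A had 26.4, 25.9 and 33.7 CPM in atg5 WSM, 37.1 and 40.5 CPM in atg5 NM, 34.1 and 37.8 CPM in wild-type WSM and 34.9, 35.3 and 35.5 CPM in wild-type NM, with atg5 WSM below the other 7 libraries.

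**Figure D4:**
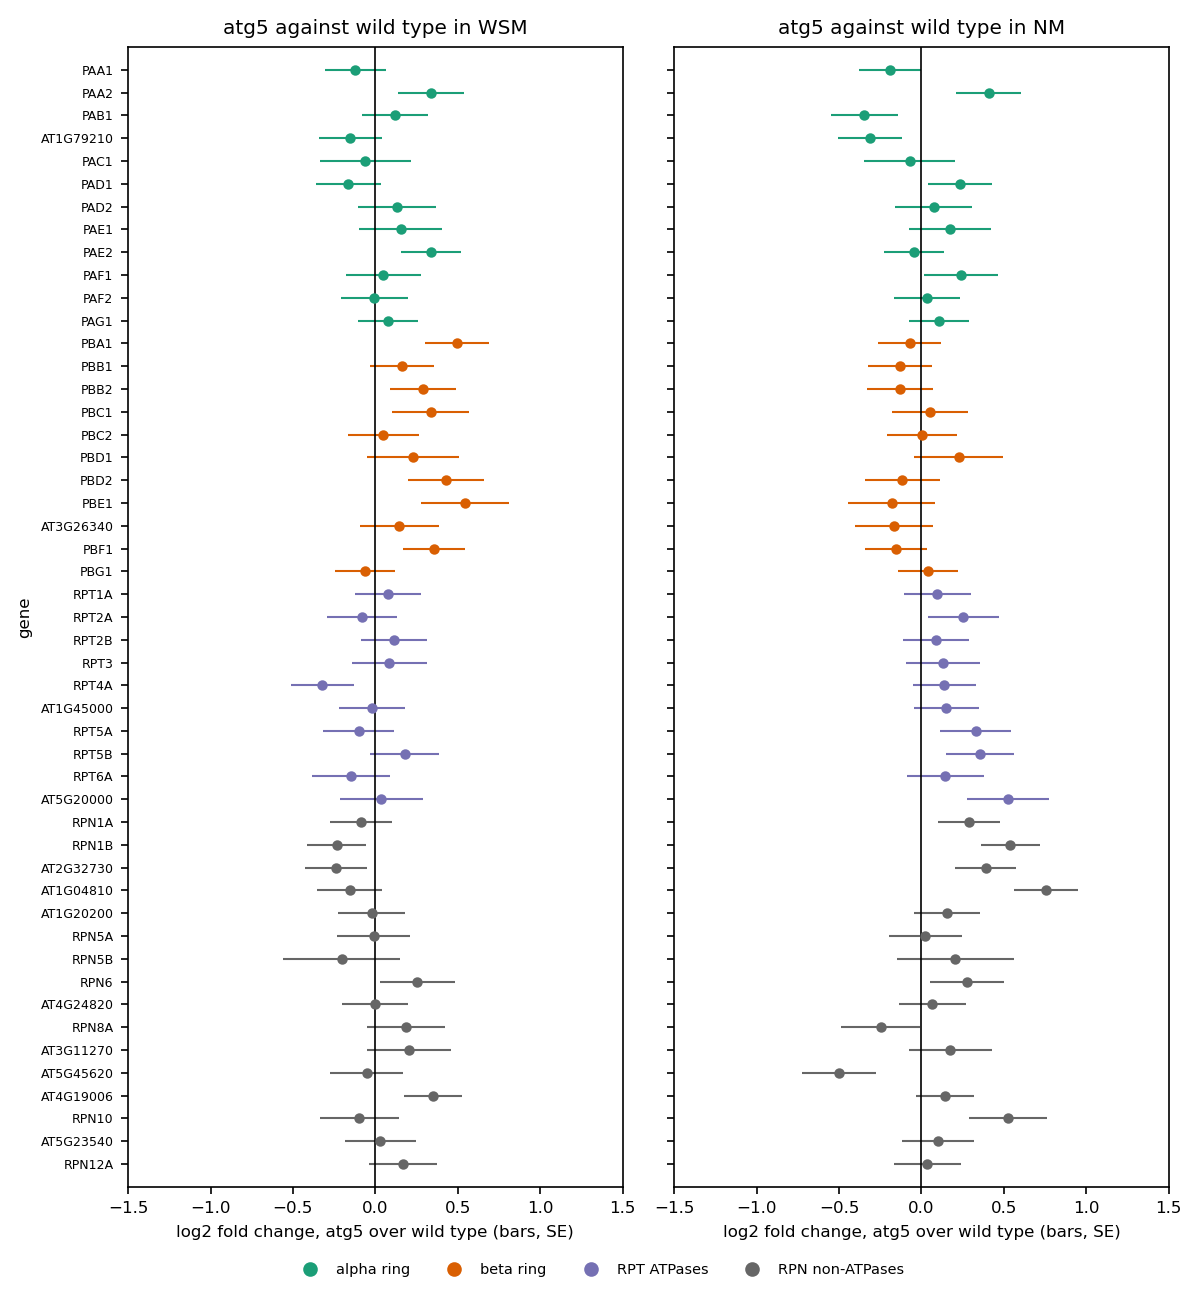
Log2 fold change of atg5 over wild type for each of the 49 subunit genes (points, with SE bars) in WSM (left) and NM (right), coloured by complex part; no gene had an adjusted p under 0.05. Beta-ring points lie mostly above 0 in WSM (10 of 11), and RPT points all lie above 0 in NM (10 of 10).

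Whether the response to WSM differed between genotypes was tested as an interaction, atg5 minus wild type. No member was called, and 0% of all genes were; at an unadjusted p under 0.05, 0 members were higher and 3 lower, where 8% and 7.07% of all genes were. Those 3 were cap scaffolds: AT1G04810 at -0.91 ± 0.28 (adjusted p 0.221), RPN1B at -0.77 ± 0.25 (0.238) and AT2G32730 at -0.63 ± 0.26 (0.300). With length correction AT2G32730 lost its direction (0.0085). Across all genes the interaction also fell with exonic length (Spearman's rho -0.55, and -0.56 over the 49 members, without a test). Its median was -0.44 for genes of 2572 to 3194 exonic bases and -0.75 for longer ones. The coding sequences of the 3 scaffold genes, a part of their exonic bases, ran from 2676 to 3015 bases. Coding length does not place a gene in these classes, which are by exonic length. The highest values were PBE1 at 0.73 ± 0.38 (0.380), PBA1 at 0.57 ± 0.27 (0.354) and PBD2 at 0.54 ± 0.32 (0.441). Medians were -0.024 over all members, 0.31 for the beta ring and -0.24 for the RPT genes; with length correction they were -0.22, 0.036 and -0.29. Only 29 of the 49 had a 95% interval between -1 and 1. For the other 20 the interval reached a 2-fold difference in response, which these libraries therefore do not exclude.

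Other genes of the pathway were taken as a list of 41, of which 40 were counted in both genotypes: further subunits, assembly factors and activators, transcription factors, ubiquitin genes, ubiquitin-activating enzymes, shuttles with CDC48, and NBR1. NAC053 in atg5 was the only one called in any of the 5 tests of the joint fit. At an unadjusted p under 0.05, 1 was higher and 7 lower in WSM in atg5 (13.6% and 11.6% of all genes), and 2 and 7 in WSM in wild type (11% and 11.6%). For atg5 against wild type 10 were higher and 2 lower in NM (8.12% and 5.82%) and 7 and 1 in WSM (8.17% and 3.83%), and in the interaction 2 and 5 (8% and 7.07%).

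In the fit of the wild-type libraries alone, 4 of the 40 were called higher and 11 lower in WSM, where 14.1% and 15.3% of all genes were. At an adjusted p under 0.05, the authors' deposited table for wild type holds 2 higher and 11 lower, where 12.3% and 14.9% of its genes were. Of the 9 ubiquitin genes, 6 were lower in the wild-type fit (UBQ2, UBQ3, UBQ5, UBQ6, UBQ10 and UBQ14). UBQ6 had a log2 of -0.94 ± 0.17 there (adjusted p 0.0018) and UBQ5 -0.88 ± 0.18 (0.0034). The genes called higher were PA200, NAC053, AT1G53780 and AT5G06460. With length correction in this fit, added after the data were seen, 0 of the 40 were called higher and 7 lower. The shares over all genes there were 10.8% and 11.6%.

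NAC053 had 23.3, 26.4 and 43.5 CPM in atg5 WSM, 14.3 and 12.4 CPM in atg5 NM, 13.8 and 17.3 CPM in wild-type WSM and 11.8, 10.3 and 10.03 CPM in wild-type NM. All 3 atg5 WSM libraries were above the other 7, and wild-type WSM lay above wild-type NM. It rose in atg5 by a log2 of 1.23 ± 0.28, with an adjusted p of 0.022, and the authors' deposited table for atg5 gave an adjusted p of 0.044. The call was lost in a fit of the atg5 libraries alone (0.154) and without atg5 WSM library 3, atg5 NM library 1 or atg5 NM library 3, and under a block on column numbers (0.118). AT5G04410, annotated as NAC078, had 27.8, 37.5 and 38.7 CPM in atg5 WSM, 33.4 and 36.4 CPM in atg5 NM, 31.1 and 26.4 CPM in wild-type WSM and 22.9, 28.7 and 23.8 CPM in wild-type NM. It did not separate the media in either genotype (-0.0021 ± 0.21 in atg5 and 0.19 ± 0.21 in wild type), and atg5 NM stood above wild-type NM by 0.47 ± 0.21 (adjusted p 0.348).

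PA200, an activator that caps the core in place of the 19S complex, had 14.4, 22.3 and 21.1 CPM in atg5 WSM, 30.1 and 24.9 CPM in atg5 NM, 22.6 and 17.6 CPM in wild-type WSM and 10.3, 12.6 and 12.9 CPM in wild-type NM. Wild-type NM was lowest and atg5 NM highest, with a log2 of 1.21 ± 0.23 for atg5 over wild type in NM and an adjusted p of 0.082 (0.0011 with DESeq2 and 0.033 in a fit of the NM libraries alone, which called 0.545% of all genes higher). The WSM response was -0.50 ± 0.23 in atg5 and 0.75 ± 0.23 in wild type, and the difference of -1.25 ± 0.33 had an adjusted p of 0.200 (0.047 with DESeq2). In the wild-type libraries alone the response had an adjusted p of 0.0082, and of 0.0047 to 0.049 with each of them left out. With length correction, the fit of wild-type libraries did not call PA200 higher. NBR1, an autophagy receptor for ubiquitinated cargo, had 73.1, 56.6 and 77.4 CPM in atg5 WSM, 68.9 and 134 CPM in atg5 NM, 34.2 and 44.7 CPM in wild-type WSM and 53.3, 48.3 and 45.5 CPM in wild-type NM. Every atg5 library was above every wild-type library, by 1.05 ± 0.28 in NM (adjusted p 0.149; 0.038 with DESeq2, which called 1.48% of all genes higher) and 0.80 ± 0.29 in WSM (adjusted p 0.327). The NM value was 0.49 without atg5 NM library 3, the one at 134 CPM, and 1.45 without atg5 NM library 1.

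CDC48A, a segregase that extracts ubiquitinated proteins, had 190.0, 188 and 268 CPM in atg5 WSM, 258 and 372 CPM in atg5 NM, 182 and 239 CPM in wild-type WSM and 169.6, 165 and 189 CPM in wild-type NM. Its value for atg5 over wild type was 0.85 ± 0.25 in NM (adjusted p 0.176) and 0.032 ± 0.25 in WSM. AT3G53230, listed with CDC48A and picked after its values were seen, was not called in the joint fit. In NM it was higher in atg5 by 1.69 ± 0.36 with DESeq2 (adjusted p 0.00075, 1.48% of all genes called higher). In a fit of the NM libraries alone it was 1.69 ± 0.17 (adjusted p 0.0066, 0.545% of all genes called higher). UBQ10, a polyubiquitin gene, had 698, 812 and 815 CPM in atg5 WSM, 842 and 1772 CPM in atg5 NM, 446 and 575 CPM in wild-type WSM and 934, 875 and 751 CPM in wild-type NM. WSM lay below NM in each genotype, by -0.75 ± 0.31 in atg5 (adjusted p 0.161) and -0.74 ± 0.32 in wild type (0.202; 0.017 in the wild-type libraries alone, and 0.0053 to 0.070 with each of them left out). The atg5 value was -0.12 without atg5 NM library 3, the one at 1772 CPM, and -1.19 without atg5 NM library 1. Of the 9 ubiquitin genes, 8 had negative values in each genotype, with medians of -0.45 in atg5 and -0.60 in wild type. AT3G53970, annotated as a PI31-related regulator, had 11.4, 6.62 and 8.72 CPM in atg5 WSM, 8.91 and 18.3 CPM in atg5 NM, 7.46 and 7.98 CPM in wild-type WSM and 8.83, 11.0 and 9.18 CPM in wild-type NM, and its groups overlapped in atg5 (-0.64 ± 0.32, adjusted p 0.247).

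**Figure D5:**
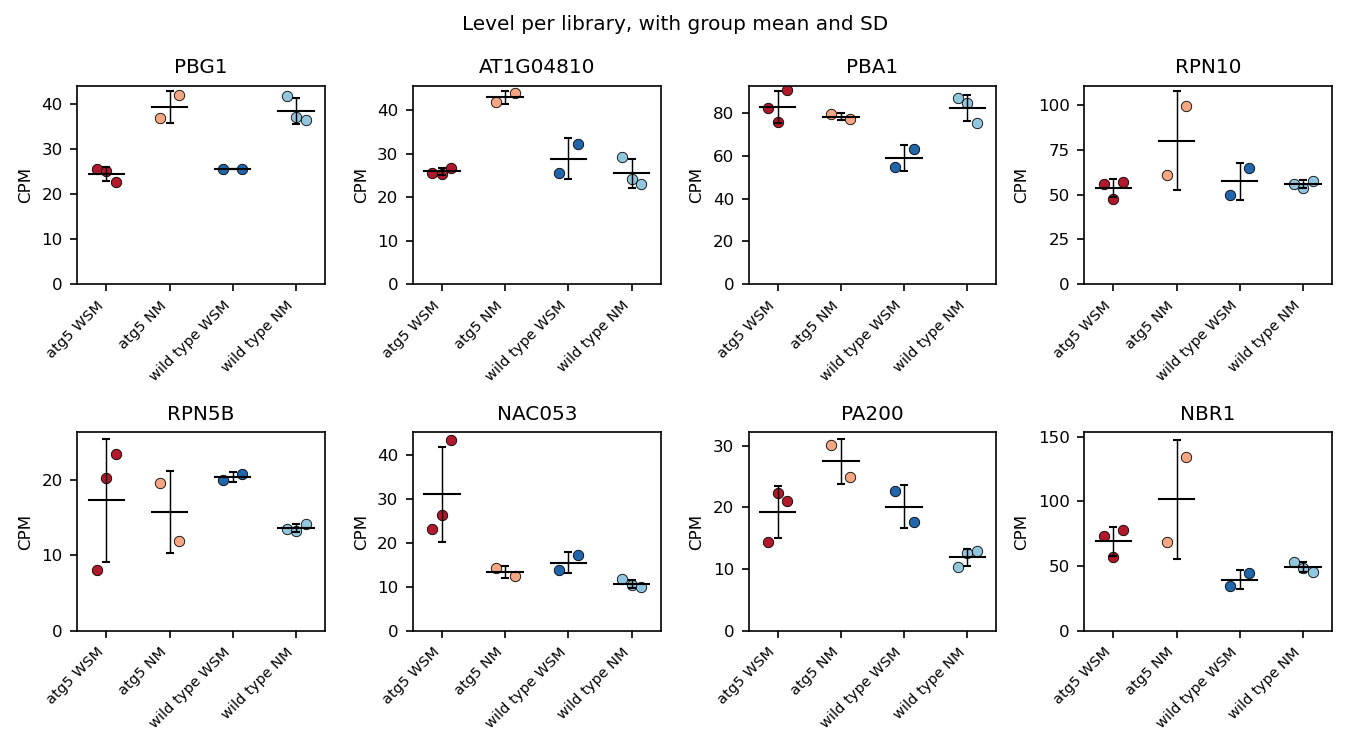
CPM in each library (points) with the group mean (line) and SD (bar) for PBG1, AT1G04810, PBA1, RPN10, RPN5B, NAC053, PA200 and NBR1, picked after their values were seen, in atg5 WSM, atg5 NM, wild-type WSM and wild-type NM. PBG1 is lower in WSM in both genotypes, AT1G04810 is highest in atg5 NM (41.9 and 44.0 CPM), and NAC053 is highest in atg5 WSM (23.3 to 43.5 CPM).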

How the data were processed

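Polyadenylated RNA of whole seedlings was sequenced from TruSeq Stranded libraries as pairs of 75-base reads, per the labels' protocols. The submitters' processing notes name bcl2fastq, Bowtie2, bedtools and DESeq2 and the build TAIR10, without roles or versions; whether reads were counted by strand is not stated there. Each genotype has 1 table in which the authors deposited raw counts, their log2 fold changes and adjusted p-values; 10 columns of normalized values were not used here. Column numbers did not match the sample titles, so columns carry groups only, and 2 of 12 labelled samples have no count column analysed here.

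Counts of the 19714 genes in both tables were fitted jointly over 10 libraries with edgeR 4.0.16 (R 4.3.3): TMM factors, filterByExpr (0 genes removed), a quasi-likelihood test with 4 groups and 6 residual degrees of freedom, and Benjamini-Hochberg adjustment over all genes, called under 0.05. The biological coefficient of variation was 28.2%. CPM uses the TMM-scaled library size. The code was tested on simulated counts. Gene names, lengths and sequences come from RefSeq's TAIR10.1, which names 37 of the 49 loci; the others keep their locus. Named genes are those called, the 3 highest and 3 lowest members per comparison, RPN10, RPN6, the catalytic subunits, 7 pathway genes and any called there. Members and lists were chosen with earlier results of these data known.

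Alternatives were RLE factors, DESeq2 1.42.0, no filter, fewer libraries or 1 table, a replicate block, a length correction, exclusion of ribosomal RNA-region genes or libraries, and each library left out.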

Additional observations from a re-analysis of the deposited data

How the results depend on the processing

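The median log2 fold change of members kept its sign under every alternative run for WSM against NM in atg5 and in wild type and for atg5 against wild type in NM. For atg5 against wild type in WSM and for the interaction, medians near 0, it did not. Every subunit gene had at least 41 counts in each library, and both calls in atg5 held without the shallowest library, atg5 WSM library 1. Without a library, a group left with 1 is taken to vary like the others. No filter gave the same fit, since the filter removed 0 genes.

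In wild type the count of 0 called lower (2.62% of all genes) became 1 with DESeq2 (5.95%), 3 without the PREP1-positive atg5 WSM libraries (7.88%), 12 in the groups compared alone (15.3%) or in the table alone (15.2%), and 2 in the wild-type libraries with length correction (11.6%); 1 was called higher in the last 3. With single libraries left out, 0 to 10 were called lower (0 in the joint fit; with wild-type libraries only, 6 and 10 without a WSM library and 4 to 5 without an NM library) and 0 to 1 higher. In atg5 the count of 2 called lower became 0 in the groups compared alone, the table alone, the replicate block, without the 2 libraries richest in ribosomal RNA and without the PREP1-positive libraries, 1 with length correction, 3 with DESeq2 (AT2G32730 added) and 0 to 2 with single libraries left out (PBD1 called without atg5 WSM library 2 and RPN10 without atg5 NM library 1). Across all genes, 520 of 19714 were called lower in atg5 in the joint fit and 978 with DESeq2. There were 424 with length correction, 102 under the replicate block and 718 without the 2 libraries richest in ribosomal RNA. In the groups compared alone 8 were, and in the table alone 8 of 20492. The member median in atg5 was -0.33 without the PREP1-positive libraries. In NM, DESeq2 called 1 member higher (1.48% of all genes), and the median of atg5 over wild type was 0.20 with length correction. The interaction median was -0.22 with length correction and -0.072 to 0.068 with single libraries left out. The causes were not tested.

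Column numbers did not pair the libraries throughout: 2 of 9 same-number pairs correlated above 0.1 (range -0.27 to 0.16). Those 2 were wild-type WSM with wild-type NM, numbered 3 (0.10) and 4 (0.16). No pairs of unlike number are given beside them, so a pairing within wild type was not tested. No block on the title numbers was possible because titles could not be matched to columns. Under the column-number replicate block, RPN10 changed sign in wild type (-0.046) and in atg5 over wild type in WSM (0.14), and AT1G04810, PBG1 and NAC053 had adjusted p of 0.141, 0.144 and 0.118 in atg5.

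The values that changed sign, some of them not near 0 in the joint fit, were as follows. With length correction, values in wild type were -0.054 for RPN1B and 0.077 for PBB1 (-0.055 and 0.076 with wild-type libraries only). In atg5 they were -0.069 for PBA1 and 0.10 for AT5G04410, in NM 0.16 for PBA1 and 0.018 for PBB1, and in WSM 0.025 for AT2G32730, 0.00538 for RPN1B and 0.28 for PA200. The interaction gave 0.0085 for AT2G32730, 0.14 for RPN6, 0.011 for AT5G04410, 0.093 for UBQ10 and 0.13 for NBR1. AT5G04410 in atg5 was 0.0022 with RLE, 0.0086 with DESeq2, 0.018 and 0.017 in the groups compared alone and the table alone, 0.00017 without ribosomal RNA-region genes, 0.14 without the libraries richest in them and 0.11 without the PREP1-positive libraries. Without the libraries richest in ribosomal RNA, WSM values of atg5 over wild type were -0.022 for AT3G53970 and 0.10 for PA200, and the interaction was 0.068 for RPN6 and 0.000910 for AT5G04410. Without the PREP1-positive libraries, values in atg5 were -0.32 for PBE1, -0.076 for PBB2 and -0.047 for PBA1; those of atg5 over wild type in WSM were -0.0061 for PBE1, -0.018 for PBB1, -0.22 for AT3G53970, 0.15 for PA200 and -0.17 for CDC48A; and the interaction of UBQ10 was 0.054.

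With single libraries left out, values in wild type ran from -0.20 to 0.023 for PBB1 and -0.16 to 0.22 for RPN10 (-0.22 to 0.022 and -0.17 to 0.22 with wild-type libraries only), and from -0.086 to 0.13 for AT5G04410 and -0.96 to 0.0022 for NBR1 in atg5. For atg5 over wild type they ran from -0.12 to 0.92 for AT3G53970 and -0.019 to 1.05 for UBQ10 in NM, and in WSM from -0.011 to 0.36 for AT3G53970, -0.16 to 0.24 for CDC48A, -0.22 to 0.14 for PA200 and -0.27 to 0.10 for RPN10. The interaction ran from -0.75 to 0.30 for AT3G53970, -0.65 to 0.31 for NBR1, -0.21 to 0.19 for RPN6 and -0.45 to 0.62 for UBQ10.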
